A study of Homo sapiens with 3 samples.

Results

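Histone acetylation writers, readers and erasers were examined in SupB15 leukemia cells and in multidrug resistant cells derived from them. The list holds 49 genes, taken by name, and 47 of them had at least 1 probe set assigned to that gene alone, 119 probe sets in all, out of 19775 genes and 41097 such probe sets on the array. They comprise 12 acetyltransferases (32 probe sets), 18 deacetylases (43 probe sets), 6 subunits of deacetylase corepressor complexes (14 probe sets) and 11 genes of bromodomain proteins (30 probe sets). NCOA3 and NCOR1, also on the list, were not analysed here.

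SupB15 is an established BCR-ABL positive B-cell precursor acute lymphoblastic leukemia (ALL) line, given in the labels as drug sensitive, and 1 array of it was compared with 2 arrays of SupB15-MR, given as multiple drug resistant. SupB15-MR cells arose when SupB15 cells in medium conditioned by the human marrow stromal line HS-5 were exposed to mitoxantrone, a topoisomerase poison, and survivors were kept without drug for months. The BCR-ABL background is thus shared by all 3 arrays, and all were of cells in ordinary RPMI medium with serum and no drug. The second SupB15-MR array is described as SupB15-MR5, and the labels call both biological replicates. The paper describes its SupB15-MR arrays as 2 clones, named MR1 and MR2 in a main figure and MR1 and MR5 in supplementary ones. The values are log2 expression values of Affymetrix probe sets, so a difference of 1 is 2-fold. Differences are given as SupB15-MR minus SupB15 throughout, and all of them share the single SupB15 array. SupB15 has no spread of its own in this design, and the error of every difference comes from the pair of SupB15-MR arrays.

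Acetyltransferases, the writers, move an acetyl group from acetyl-CoA onto lysines of histone tails and of other proteins, which loosens the contact of histones with DNA and forms docking sites for other proteins. Many bromodomain proteins read these acetyl-lysines. Deacetylases erase them, the HDACs with a zinc ion and the sirtuins with NAD, and several HDACs work inside corepressor complexes such as SIN3, CoREST and NuRD. In leukemia, genes of this pathway such as CREBBP, EP300 and KAT6A are known as targets of mutation or translocation, and HDAC and bromodomain inhibitors are studied as drugs.

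Members went in both directions between SupB15 and SupB15-MR. A member was called when limma's moderated test over all kept probe sets passed a Benjamini-Hochberg limit of 0.05 and the mean difference was 2-fold or more. Each gene is shown by its representative probe set, that with the highest mean of the 2 group levels. Of 47 genes, 5 rose (10.6%), 6 fell (12.8%) and 36 were not called, whereas of all 17531 genes tested 10.6% were called higher and 9.81% lower. Called higher were the deacetylases HDAC4 and HDAC7, the corepressor scaffold SIN3A and the bromodomain genes BRD2 and BRD7. Called lower were the coactivator NCOA2, the deacetylases HDAC6, SIRT3 and SIRT7 and the bromodomain genes BRPF1 and TRIM28. Centring each array on its median, which lay 0.19 lower in SupB15 than the mean of the SupB15-MR medians, gave 6 genes higher (12.8%, against 10.8% of all genes) and 12 lower (25.5%, against 17.3%).

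By size alone, with no test, 7 members were 2-fold or more higher in each SupB15-MR array (14.9%, against 14.5% of all genes) and 8 were lower to that degree (17.0%, against 15.1%). The median difference over the 47 genes was -0.11, beside 0 over all genes, with 22 above 0 and 25 below. All of these shares lie near those of all genes. Counted by probe set, 15 of the 115 that passed the filter on low values rose (13.0%, against 13.1% of all) and 10 fell (8.7%, against 9.71%). After centring these counts were 19 and 21 (16.5% and 18.3%, against 14.2% and 16.9% of all), and after a new quantile normalization 19 each way (16.5%, against 14.1% and 14.0%). By size alone, 24 member probe sets were 2-fold or more higher in each SupB15-MR array (20.9%, against 18.3% of all), and 14 were lower to that degree (12.2%, against 15.0%). The values of the 47 genes in each array are shown in the plot of members in the 3 arrays.

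**Figure D1:**
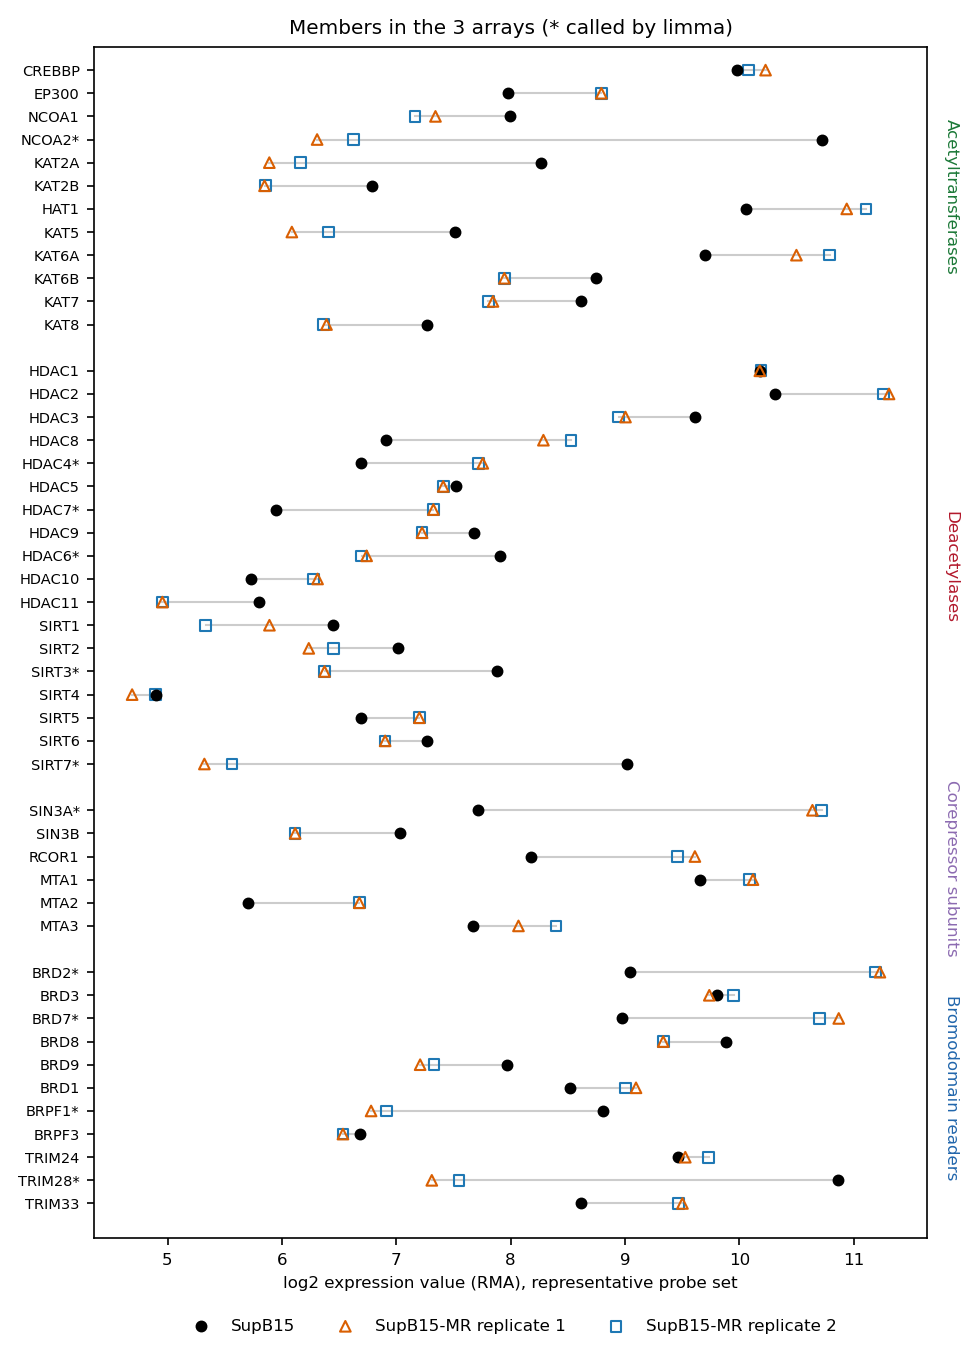
Log2 expression value (horizontal axis) of the representative probe set of each of 47 members (vertical axis, by group) in the SupB15 array (filled circles) and in both SupB15-MR arrays (open triangles and squares); asterisks mark the 11 genes called by limma, and each gene is to be read along its own line, since probe sets differ in brightness. The pairs of open symbols lie close together, and NCOA2, SIRT7, TRIM28 and SIN3A have the widest gaps to the filled circle, with differences of -4.26, -3.58, -3.43 and 2.96.

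Several facts of the arrays stand beside these results. The SupB15-MR arrays correlated at r = 0.995 with each other and at 0.841 with SupB15. In the SupB15-MR arrays 42.7% of all probe sets had the same value in both, and the correlation between them includes these. How the equal values arose was not tested. The control probe sets for 18S ribosomal RNA were higher in SupB15-MR by 6.63 to 7.82, and the 3′ probe set of the control ACTB lay above the 5′ one, with a gap of 0.80 in SupB15 and of 2.59 and 2.43 in SupB15-MR, whereas for GAPDH these gaps lay between -0.11 and 0.10. The level of all 3 GAPDH control probe sets was lower in SupB15-MR, with differences of -1.81 to -1.18, that of the 5′ and middle ACTB probe sets differed by -1.69 and -1.04, and those for 28S ribosomal RNA differed by -0.90 to 4.63. The part of these control differences in the results was not tested. Of 9 B-cell precursor markers, all were above the low-value limit of 3.47 in every array, 2 fell (VPREB1 by 6.41 and IGLL1 by 2.32) and 7 were not called, among them CD79A at 10.34, 10.27 and 10.27. Without a call, EBF1 was lower (-1.50) and RAG1 higher (2.03), each by 2-fold or more in each SupB15-MR array. Of 7 marrow stroma markers, none was called and LUM and POSTN were below that limit in every array. DCN was 2-fold or more lower in each SupB15-MR array (-1.10). T-cell markers lay between 2.81 and 5.62, with CD3E alone called (it fell by 2.28), and of the 5 myeloid markers LYZ alone was called, higher by 1.21. Without a call, MPO was higher (1.57) and CSF1R lower (-2.29), each by 2-fold or more in each SupB15-MR array. Within an array, fewer cells with a transcript and less of it in each cell cannot be told apart.

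Of the members, 4 have 1 entry in the RefSeq promoter table and at least 2 in 3 of their probe sets 2-fold apart in the same direction in both SupB15-MR arrays, and their promoters are shown. KAT2A met the probe set condition on its only probe set. KAT2A and KAT5 were lower by size alone and RCOR1 higher, without a call on the representative probe set, and BRD7 rose. SIN3A, with several entries, is not shown. BRD2, BRPF1, HDAC4, SIRT7 and TRIM28 also met the probe set condition but not that of 1 entry. Each sequence below runs from 250 bases before to 50 bases after the RefSeq start in GRCh38.p14, 5′ to 3′ on the strand of the gene, and 42 of the 49 members had such an entry. Capitals mark the motifs searched on both strands, none of which overlap here, namely the GC box GGGCGG, the CCAAT box, the TATA box TATAAA, the E-box CACGTG and the ETS site CCGGAAGT. KAT2A lies at chr17:42121318-42121617 (minus strand), KAT5 at chr11:65712002-65712301 (plus strand), RCOR1 at chr14:102592399-102592698 (plus strand) and BRD7 at chr16:50368939-50369238 (minus strand). The RefSeq gene of KAT5 begins 234 bases before the start used, so that most of its window lies inside the annotated gene.
KAT2A: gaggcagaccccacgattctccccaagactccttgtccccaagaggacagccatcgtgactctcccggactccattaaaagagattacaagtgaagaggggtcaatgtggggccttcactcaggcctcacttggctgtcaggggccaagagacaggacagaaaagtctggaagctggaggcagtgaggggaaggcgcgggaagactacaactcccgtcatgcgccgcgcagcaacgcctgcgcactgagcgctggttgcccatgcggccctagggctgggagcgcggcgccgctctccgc
KAT5: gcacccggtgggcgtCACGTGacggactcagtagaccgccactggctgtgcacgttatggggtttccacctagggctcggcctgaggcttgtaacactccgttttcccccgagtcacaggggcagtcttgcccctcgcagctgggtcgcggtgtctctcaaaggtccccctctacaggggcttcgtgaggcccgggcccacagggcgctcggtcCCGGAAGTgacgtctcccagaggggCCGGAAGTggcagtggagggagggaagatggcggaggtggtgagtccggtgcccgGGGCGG
RCOR1: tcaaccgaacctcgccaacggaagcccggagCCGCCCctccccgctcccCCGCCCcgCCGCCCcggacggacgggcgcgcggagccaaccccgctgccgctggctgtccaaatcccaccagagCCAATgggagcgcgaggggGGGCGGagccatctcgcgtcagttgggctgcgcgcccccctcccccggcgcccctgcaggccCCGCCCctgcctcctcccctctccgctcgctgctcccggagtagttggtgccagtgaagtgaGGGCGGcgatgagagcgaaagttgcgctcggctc
BRD7: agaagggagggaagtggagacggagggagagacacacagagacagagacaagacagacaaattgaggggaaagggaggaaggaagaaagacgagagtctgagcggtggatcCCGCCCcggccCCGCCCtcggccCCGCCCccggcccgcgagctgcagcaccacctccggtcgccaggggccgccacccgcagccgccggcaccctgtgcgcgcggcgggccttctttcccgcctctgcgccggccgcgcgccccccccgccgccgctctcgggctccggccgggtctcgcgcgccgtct
The promoter of KAT2A, with a GC content of 62.0%, held none of these motifs. That of KAT5, with 67.3%, held 1 GC box, 1 E-box and 2 ETS sites. RCOR1 had 6 GC boxes and 1 CCAAT box at a GC content of 74.3%, and BRD7 had 3 GC boxes at 73.3%. All 4 windows were richer in GC than the median of 58.7% over 35116 promoters, and a link of motif number to direction was not tested. Of all promoters of this length, 45.0% held a GC box, 34.6% a CCAAT box, 11.5% the TATA box, 7.26% the E-box and 4.14% the ETS site.

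Among the acetyltransferases, none of 12 rose, NCOA2 fell (8.33%, against 9.81% of all genes) and 11 were not called. By size alone, on the representative probe sets, 3 were 2-fold or more lower in each SupB15-MR array (25.0%, against 15.1% of all genes). None was higher to that degree (against 14.5%), and the median difference was -0.80, with 8 genes below 0. Counted by probe set, 5 of 31 tested were 2-fold or more higher in each array (16.1%, against 18.3% of all) and 6 were lower (19.4%, against 15.0%). Of the 31, 2 rose (6.45%, against 13.1% of all) and 3 fell (9.68%, against 9.71%). NCOA2, a nuclear receptor coactivator that brings acetyltransferases to hormone-bound receptors, had a value of 10.72 in SupB15 and of 6.31 and 6.63 in SupB15-MR. Its level was thus far lower in both SupB15-MR arrays, and it fell by 4.26 (standard error 0.242, adjusted p = 0.0350 from limma). The other NCOA2 probe sets differed by -2.13 (adjusted p = 0.0594 from limma), -0.61 and 0.81, so that the median over its 4 probe sets was -1.37. The related coactivator NCOA1 had 4 probe sets with differences of -0.94 to -0.03, none called.

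KAT2A (GCN5), the acetyltransferase of the SAGA and ATAC complexes, read 8.27 in SupB15 and 5.89 and 6.16 in SupB15-MR on its only probe set. Both SupB15-MR arrays were more than 2-fold lower, and the difference of -2.24 (standard error 0.207) missed the threshold with an adjusted p of 0.0565 from limma. KAT2B (PCAF), its paralog, differed by -0.94. KAT5 (TIP60), the acetyltransferase of the NuA4 complex that also acts in the DNA damage response, had 7.51 in SupB15 and 6.09 and 6.41 in SupB15-MR. This difference of -1.27 was not called (adjusted p = 0.116 from limma), another KAT5 probe set fell by 1.01 and the remaining one differed by -0.58. All 3 KAT5 probe sets carry the suffix that Affymetrix gives to probe sets that may also bind similar transcripts.

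The other MYST acetyltransferases had probe sets that did not move alike. For KAT6A (MOZ), the representative probe set read 9.70 in SupB15 and 10.50 and 10.79 in SupB15-MR, a difference of 0.95 that was not called. A second one was at 5.22 in SupB15 and at 10.05 and 10.45 in SupB15-MR, and it rose by 5.02 (adjusted p = 0.0369 from limma), the largest difference of any member probe set. The remaining pair differed by 0.05 and 0.56. For KAT6B (MORF), 3 probe sets were more than 2-fold higher in each SupB15-MR array, by 1.62, 1.76 and 2.26, none of them called, while the representative one differed by -0.80. KAT7 (HBO1) differed by -0.79. KAT8 (MOF), which acetylates lysine 16 of histone H4, differed by -0.90 on its brighter probe set, and its dimmer one fell by 1.64, from 5.55 to 3.91 in each SupB15-MR array.

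CREBBP and EP300, the paired general coactivators with broad histone substrates, were not called. CREBBP read 9.98 in SupB15 and 10.23 and 10.08 in SupB15-MR, and EP300 read 7.98 and then 8.79 in both. The other EP300 probe set differed by -0.31. Dimmer CREBBP probe sets went further, and 1 of them rose by 2.18 from 4.73 in SupB15 (adjusted p = 0.00550 from limma), beside others at -0.60 and 0.91. HAT1, which acetylates new histone H4 before it is placed on DNA, was at 10.06 in SupB15 and at 10.94 and 11.11 in SupB15-MR, a difference of 0.96 that was not called. The spread between probe sets of a gene is shown in the plot of all member probe sets.

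**Figure D2:**
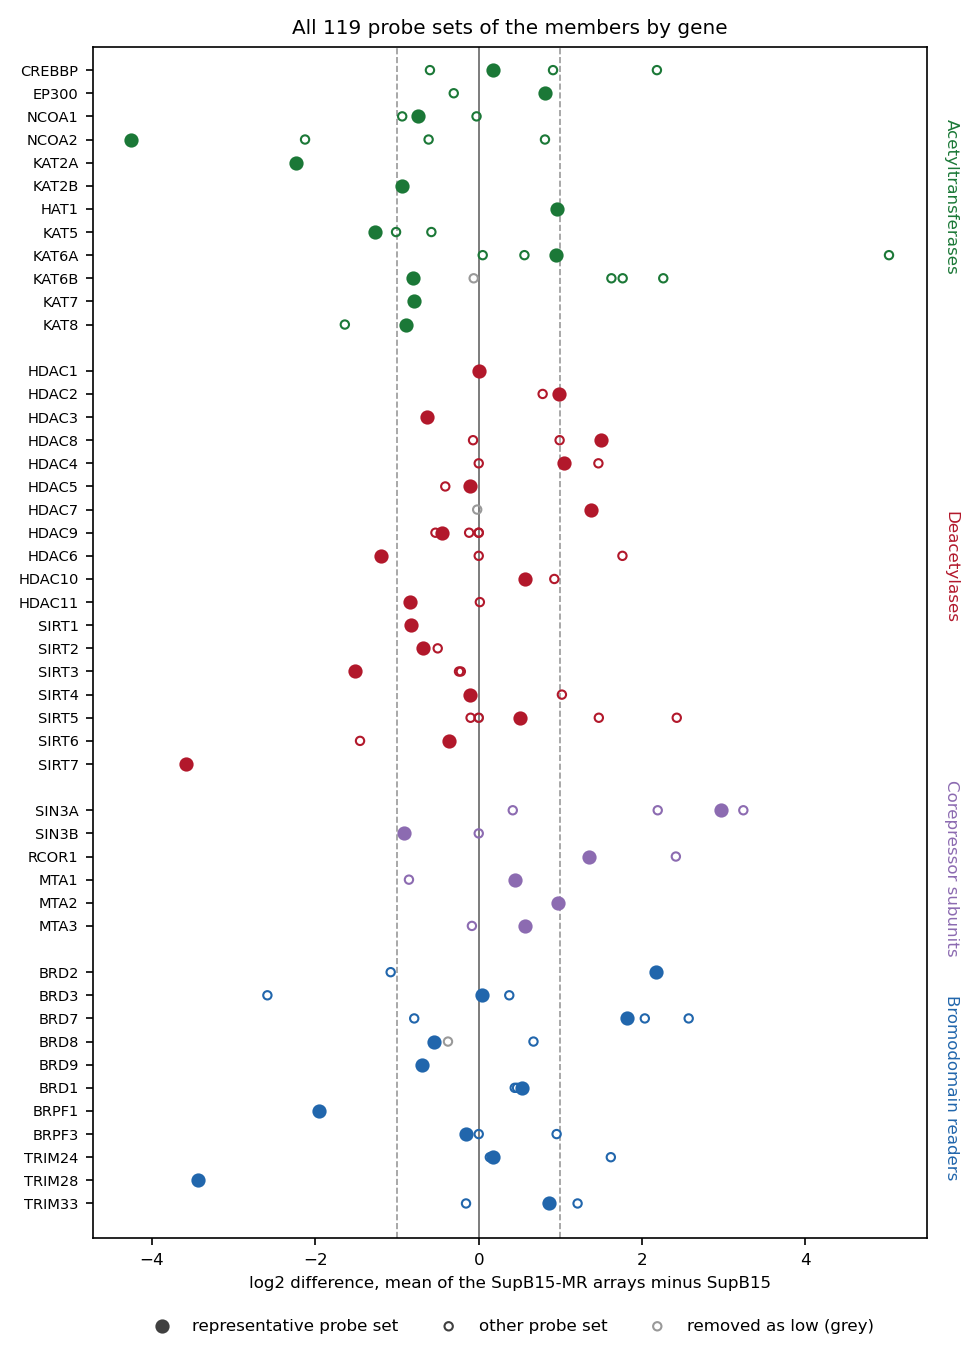
Log2 difference between the mean of both SupB15-MR arrays and SupB15 (horizontal axis) for all 119 member probe sets, by gene (vertical axis); filled circles are the representative probe sets, open circles the others and grey circles the 4 removed as low, and dashed lines mark 2-fold. HDAC6 and BRD2 have probe sets past both dashed lines, and the KAT6A probe set at 5.02 lies far from the other KAT6A probe sets.

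Of the 18 deacetylases, 2 rose (11.1%, against 10.6% of all genes), 3 fell (16.7%, against 9.81%) and 13 were not called. By size alone, 3 were higher and 3 lower by 2-fold or more in each SupB15-MR array (16.7% each way, against 14.5% and 15.1% of all genes). Among 11 HDACs, 2 rose and 1 fell (18.2% and 9.09%, against 10.6% and 9.81% of all genes). Both that rose are class IIa enzymes, which shuttle between nucleus and cytoplasm and repress MEF2 targets. HDAC4 was at 6.70 in SupB15 and at 7.76 and 7.72 in SupB15-MR, higher by 1.04 (standard error 0.0268, adjusted p = 0.0154 from limma). This lies just past 2-fold, and after centring the arrays it was 0.85 and no longer called. HDAC7, a class IIa enzyme of B-cell precursors and thymocytes, read 5.95 in SupB15 and 7.32 in both SupB15-MR arrays, a rise of 1.37. Equal values in the SupB15-MR arrays leave no residual spread of its own for HDAC7, so its adjusted p of 0.000645 from limma rests on the spread that limma borrows from other probe sets. The other class IIa genes, HDAC5 and HDAC9, differed by -0.11 and -0.45.

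HDAC6, a cytoplasmic class IIb deacetylase of tubulin and HSP90, had probe sets in opposite directions. The representative one was at 7.91 in SupB15 and at 6.74 and 6.70 in SupB15-MR, and it fell by 1.19 (standard error 0.0323, adjusted p = 0.0163 from limma). Another was at 3.89 in SupB15 and at 5.72 and 5.57 in SupB15-MR and rose by 1.76 (adjusted p = 0.0381 from limma), and the third read 7.02 in all 3 arrays. The median over these probe sets was 0, and no single direction holds for HDAC6. HDAC10, the other class IIb enzyme, differed by 0.57, and HDAC11, the class IV enzyme, by -0.84, neither called.

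The class I enzymes, of which HDAC1, HDAC2 and HDAC3 form the catalytic core of corepressor complexes, were not called. HDAC1 was level at 10.18, 10.18 and 10.19. HDAC2 was at 10.31 in SupB15 and at 11.31 and 11.26 in SupB15-MR, a difference of 0.98, and HDAC3, the enzyme of the NCoR complex, differed by -0.64. HDAC8, which deacetylates the cohesin subunit SMC3, read 6.91 in SupB15 and 8.29 and 8.53 in SupB15-MR. Although both SupB15-MR arrays were more than 2-fold higher, the difference of 1.5 (standard error 0.184) was not called (adjusted p = 0.0746 from limma), and the HDAC8 probe set that was brightest in SupB15 differed by -0.07.

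Of the 7 sirtuins, none rose, 2 fell and 5 were not called, where 10.6% of all genes were called higher and 9.81% lower. On the representative probe sets their median difference was -0.68, and 6 were below 0, as were 7710 of all 17531 genes. SIRT7, a nucleolar deacetylase that acts on lysine 18 of histone H3 and on ribosomal DNA transcription, was at 9.02 in SupB15 and at 5.32 and 5.56 in SupB15-MR. It fell by 3.58 (standard error 0.181, adjusted p = 0.0311 from limma) on its only probe set, with both SupB15-MR arrays far below SupB15. SIRT3, the main mitochondrial deacetylase, fell by 1.51, from 7.88 to 6.37 in both SupB15-MR arrays, on 1 of its 3 probe sets. The other SIRT3 probe sets differed by -0.24 and -0.22, so that the median was -0.24.

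SIRT6, a chromatin deacetylase of lysine 9 of histone H3 that acts in DNA repair, differed by -0.36 on its representative probe set and fell by 1.45 on the other, from 6.16 to 4.68 and 4.74 (adjusted p = 0.0193 from limma). SIRT1, the nuclear deacetylase of p53 and FOXO factors, read 6.44 in SupB15 and 5.89 and 5.33 in SupB15-MR. Its difference of -0.83 was not called, and the gap of 0.56 between the SupB15-MR arrays was the widest of any member probe set. SIRT2, a mainly cytoplasmic tubulin deacetylase, differed by -0.68, and mitochondrial SIRT4 by -0.10. SIRT5, which removes succinyl and malonyl groups in mitochondria, had probe sets that did not move alike. Its representative probe set differed by 0.51, another rose by 1.47, a further one differed by 2.42 (adjusted p = 0.104 from limma) and the others tested differed by -0.10 and 0. Across the 16 sirtuin probe sets tested, 1 rose (6.25%, against 13.1% of all) and 3 fell (18.8%, against 9.71%). Of these 16, 11 were below 0, as were 18843 of all 46034 tested.

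Of the 6 corepressor subunits, SIN3A rose (16.7%, against 10.6% of all genes), none fell (against 9.81%) and 5 were not called. By size alone, 2 were 2-fold or more higher in each SupB15-MR array (33.3%, against 14.5% of all genes) and none was lower to that degree (against 15.1%). The median difference over the 6 subunits was 0.77. SIN3A, the scaffold on which HDAC1 and HDAC2 are assembled with DNA-bound repressors, was at 7.72 in SupB15 and at 10.64 and 10.72 in SupB15-MR. It rose by 2.96 (standard error 0.0623, adjusted p = 0.0125 from limma). Dimmer SIN3A probe sets also rose, by 2.19 and 3.24, and the fourth differed by 0.42. Its paralog SIN3B was at 7.04 in SupB15 and at 6.12 in each SupB15-MR array, a difference of -0.92 that was not called. The SIN3 scaffolds thus differed in sign, and the difference between them was not tested.

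RCOR1 (CoREST), which couples HDAC1 and HDAC2 to the demethylase KDM1A, read 8.18 in SupB15, with 9.61 and 9.46 in SupB15-MR. The difference of 1.35 (standard error 0.115) missed the threshold at an adjusted p of 0.0519 from limma, and its second, dimmer probe set rose by 2.41 from 4.86 in SupB15. Both RCOR1 probe sets were more than 2-fold higher in both SupB15-MR arrays. The NuRD subunits MTA1, MTA2 and MTA3 differed by 0.45, 0.98 and 0.57 on their representative probe sets, none called. The other MTA1 probe set differed by -0.85 and the other MTA3 one by -0.08.

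Among the 11 bromodomain genes, 2 rose, 2 fell (18.2% each, against 10.6% and 9.81% of all genes) and 7 were not called. By size alone, 2 were 2-fold or more apart each way (18.2% each, against 14.5% of all genes higher and 15.1% lower). The median difference of 0.04 was smaller than the shift of 0.19 between the array medians. BRD2, a BET protein that reads acetylated histone H4 and keeps it at active genes, was at 9.05 in SupB15 and at 11.23 and 11.19 in SupB15-MR, a rise of 2.17 (standard error 0.0300, adjusted p = 0.00782 from limma). A second probe set rose by 2.16, but another went from 7.77 in SupB15 to 6.66 and 6.74 in SupB15-MR and fell by 1.08 (adjusted p = 0.0348 from limma). BRD2 was thus higher on its brighter pair of probe sets and lower on the dimmest one. BRD3, the other BET gene measured, differed by 0.04 on its representative probe set, whereas another was at 10.30 in SupB15 and at 7.50 and 7.93 in SupB15-MR without being called (adjusted p = 0.0771 from limma).

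BRD7, a subunit of the PBAF remodelling complex and a cofactor of p53, read 8.97 in SupB15 and 10.87 and 10.70 in SupB15-MR. It rose by 1.81 (standard error 0.124, adjusted p = 0.0420 from limma), a second probe set rose by 2.03 and the others differed by 2.57 and -0.79. BRD9, which belongs to another form of the same remodeller family, differed by -0.70, and BRD8, a NuA4 subunit, by -0.54. BRPF1, a scaffold that holds KAT6A and KAT6B in their complex, was at 8.81 in SupB15 and at 6.78 and 6.91 in SupB15-MR. It fell by 1.96 on its only probe set (standard error 0.101, adjusted p = 0.0319 from limma). Its relatives BRD1, which scaffolds KAT7, and BRPF3 differed by 0.53 and -0.15.

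TRIM28 (KAP1), the corepressor of KRAB zinc finger proteins that recruits NuRD and the methyltransferase SETDB1, had 10.86 in SupB15 and 7.31 and 7.55 in SupB15-MR. It fell by 3.43 (standard error 0.180, adjusted p = 0.0322 from limma) on its only probe set. The other TRIM genes of the list were not called, with differences of 0.17 for TRIM24 and 0.87 for TRIM33. A dim TRIM33 probe set nevertheless rose by 1.21 from 3.20 in SupB15, and a dim TRIM24 one differed by 1.62. TRIM28 was thus the only TRIM gene of the list more than 2-fold lower on any probe set.

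Gaps between the SupB15-MR arrays were small for the members, as for all probe sets. Of 115 member probe sets, 33 (28.7%) had the same value in both, beside 39.7% of all 46034, and the median absolute gap was 0.051, beside 0.047 over all. Gaps over 0.5 were found in 2 (1.74%, against 5.11% of all), for SIRT1 and for SIRT5, and none reached 1, as did 0.474% of all. No member probe set was 2-fold higher in one SupB15-MR array and 2-fold lower in the other, as the plot of both arrays shows.

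**Figure D3:**
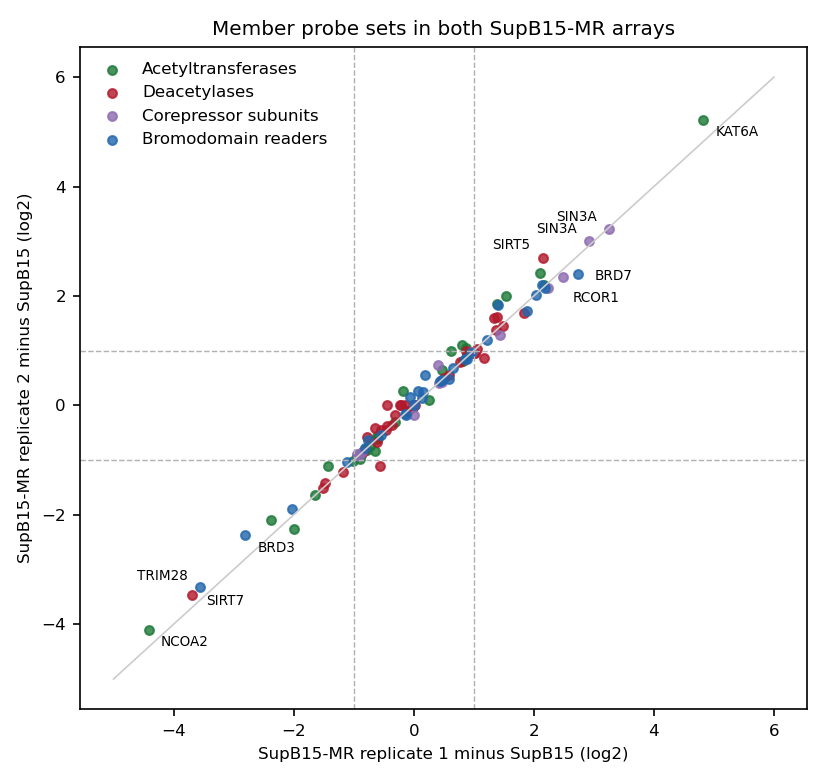
Log2 difference from SupB15 in SupB15-MR replicate 1 (horizontal axis) and replicate 2 (vertical axis) for the 115 member probe sets that passed the filter, coloured by group; the line marks equal values, dashed lines mark 2-fold, and probe sets with a mean difference of at least 2.3 in size are named. Points lie along the line, with the widest gap 0.56, and both axes share the SupB15 array.

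Other genes of the pathway were described from lists of complex partners, 102 genes found of 106 listed, of which 101 passed the filter. In all, 17 of them rose (16.8%, against 10.6% of all genes), 8 fell (7.92%, against 9.81%) and 76 were not called, and their median difference was 0.02. For 16 partners in SAGA and ATAC, the complexes of KAT2A, 2 rose (12.5%, against 10.6% of all genes) and none fell (against 9.81%). YEATS2, the ATAC subunit that reads acetylated histone H3, rose by 1.79, from 7.19 in SupB15 to 8.98 in both SupB15-MR arrays, while its other probe set was more than 2-fold lower in both. TAF5L, a core SAGA subunit, rose by 1.12 on 1 of its 2 probe sets, and SUPT3H, a histone-fold subunit, differed by 1.64 (adjusted p = 0.0546 from limma), with a median of 0.38 over its 2 probe sets. No representative probe set of this list was 2-fold lower in each SupB15-MR array, and that of KAT2A itself was.

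Of 24 partners of KAT5, KAT6A, KAT6B, KAT7 and KAT8 in the NuA4, MOZ and HBO1 type complexes, 1 rose, 1 fell and 22 were not called. The called shares were 4.17% each way, against 10.6% and 9.81% of all genes. ACTL6A, an actin-related NuA4 subunit, fell by 1.71, from 9.49 to 7.86 and 7.70. ING5, a plant homeodomain subunit of the MOZ and HBO1 complexes, rose by 1.61 on its representative probe set, with a median of 0.19 over its 5 probe sets, and VPS72, shared with a histone exchange complex, differed by -1.69 (adjusted p = 0.0549 from limma).

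The 26 partners in HDAC complexes held differences in both directions, with 7 that rose (26.9%, against 10.6% of all genes) and 4 that fell (15.4%, against 9.81%). SAP30, a SIN3 subunit that links the scaffold to HDAC1, was at 5.09 in SupB15 and at 9.78 and 9.90 in SupB15-MR, a rise of 4.75 (standard error 0.0882, adjusted p = 0.0109 from limma). The median over the 4 SAP30 probe sets was 1.35. HMG20B, a CoREST complex subunit, went from 8.73 to 5.76 and 5.83 and fell by 2.94. MBD3, a NuRD subunit, had the largest negative difference of the list, -3.51, without being called (adjusted p = 0.0572 from limma). On their representative probe sets the NuRD ATPases were called in opposite directions, since CHD4 rose by 2.38 and CHD3 fell by 1.81. The median over the 2 CHD3 probe sets was -0.88, and the called one read 7.36 in both SupB15-MR arrays. Both ATPase genes were named after their values were seen.

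Of 21 other acetyl-lysine readers, 5 rose (23.8%, against 10.6% of all genes) and 1 fell (4.76%, against 9.81%), and by size alone 7 were 2-fold or more higher in each SupB15-MR array (33.3%, against 14.5%) and 1 was lower (4.76%, against 15.1%). BAZ2A, a subunit of the nucleolar remodelling complex, rose by 2.21, with a median of 0.67 over its 4 probe sets. BPTF, the reader subunit of the NURF remodeller, rose by 1.78 on its representative probe set, but the median over its 5 probe sets was -0.82. ATAD2, an ATPase with a bromodomain, differed by 1.61 (adjusted p = 0.0699 from limma) on its representative probe set and was more than 2-fold lower on another, with a median of -0.68. These readers were thus higher on some probe sets and not on others. Of 14 genes that make, carry or consume acetyl-CoA and NAD, 2 rose and 2 fell (14.3% each way, against 10.6% and 9.81% of all genes). ACLY and ACSS1, which make acetyl-CoA, rose by 1.23 and 1.24 on their representative probe sets, and each had another probe set more than 2-fold lower; both were named after their values were seen. SLC25A1, the mitochondrial citrate carrier, fell by 1.68, PARP1, a major consumer of NAD, fell by 1.58, and CRAT, carnitine acetyltransferase, differed by -2.17 (adjusted p = 0.0558 from limma), with a median of -0.92 over its 2 probe sets. The shares of each list are shown in the plot of genes 2-fold apart.

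**Figure D4:**
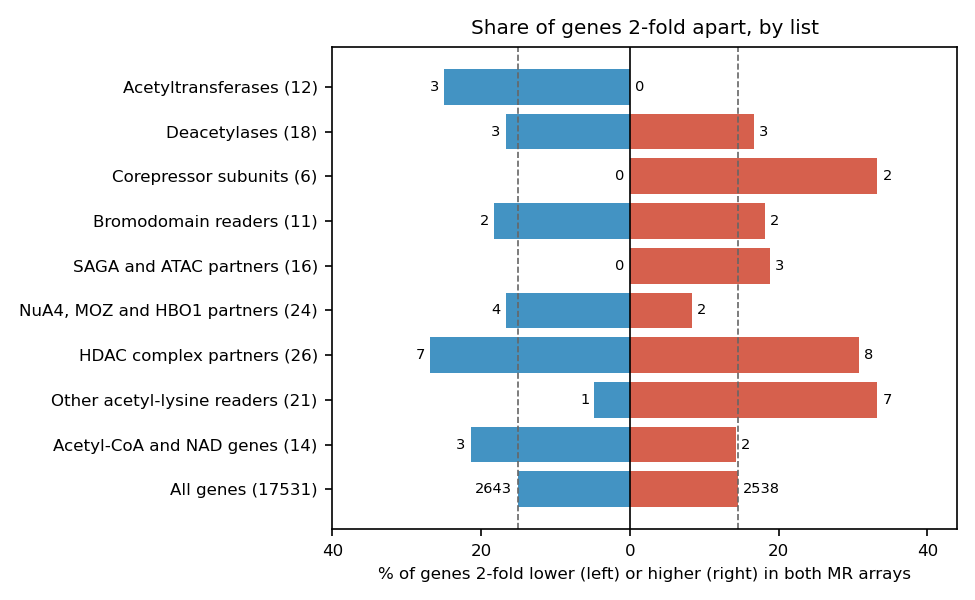
Percentage of genes 2-fold or more lower (bars to the left) or higher (bars to the right) in each SupB15-MR array than in SupB15, by list (vertical axis, number of genes tested in brackets, counts at the bar ends); dashed lines mark the shares over all 17531 genes, 15.1% and 14.5%. By representative probe set, the 12 acetyltransferases have no bar to the right, and the 6 corepressor subunits and 16 SAGA and ATAC partners none to the left. No test of these shares was made.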

How the data were processed

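Total RNA of 3 cultures was amplified and biotin-labelled (NuGEN Ovation), hybridized to Affymetrix HG-U133 Plus 2 arrays and summarised by RMA. The authors deposited 1 log2 value per array for each of 54675 probe sets. Precision is limited by the number of arrays, which have no read depth. Probe sets were named from the platform annotation (1 gene for 41097, several for 1801, none for 11777), and only those with 1 gene were used for genes. Probe sets with all 3 values at or below the 20th percentile (3.47) were removed, 8641 in all, which left 46034.

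SupB15-MR (n = 2) was compared with SupB15 (n = 1) in limma (version 3.58.1, R 4.3.3), which left 1 residual degree of freedom, with Benjamini-Hochberg adjustment over all kept probe sets, an adjusted p limit of 0.05 and a fold limit of 2. The methods' analysis of variance, with these limits, was an alternative. Of the kept probe sets, 18289 had identical values in both SupB15-MR arrays, so that the prior standard deviation was 0.00102 and adjusted p-values depend on it. The fit was tested on simulated data.

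Values in all arrays are given for members called or 2-fold apart in both SupB15-MR arrays, for members with probe sets 2-fold apart in opposite directions, and for up to 3 genes of each partner list with the largest such differences. Other probe sets and genes were added after their values were seen. The members and lists were chosen with earlier results of these data known. Alternatives were 2 scalings, 2 filters, 3 choices of probe set, leaving out suffixed probe sets or 1 SupB15-MR array, another variance prior and that analysis of variance. Promoters are from RefSeq (GRCh38.p14). Figures were drawn with matplotlib 3.10.9.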

Additional observations from a re-analysis of the deposited data

How the results depend on the processing

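With 1 SupB15 array, no spread between SupB15 cultures was measured, and single probe sets carry several calls. Of the member genes, the count called higher (5) was 2 of 34 without probe sets whose names end in _x_at or _s_at. Called lower (6), it was 12 after centring on the array medians (25.5%, against 17.3% of all genes). After quantile normalization it was 10 (21.3%, against 14.2% of all genes). By probe set, called higher (15) became 25 when limma's prior was taken from the probe sets whose SupB15-MR values differ (21.7%, against 19.6% of all). It became 6 of 62 without suffixed probe sets. Called lower (10) became 21 after centring (18.3%, against 16.9% of all) and 19 after quantile normalization (16.5%, against 14.0%). Without suffixed probe sets it was 5 of 62, and shares over all were not computed for that setting. The analysis of variance gave 0 for each of these counts, as it did for all 27745 probe sets it could test, so its 0 says nothing about the members. At an unadjusted p of at most 0.05 the analysis of variance gave 9 of 34 member genes and 21 of 82 probe sets at least 2-fold apart. By these limits 4238 of all 27745 probe sets were higher and 2540 lower, and the count over all genes was not made. Counts of genes 2-fold apart in both arrays stayed within 1.5 times the reported ones, from 5 to 9 higher and from 6 to 12 lower. The member median of -0.11 was -0.30 after centring and -0.25 after quantile normalization. Over all kept probe sets the median was 0 as reported, -0.19 after centring and -0.091 after quantile normalization. The member median was -0.31 with the probe set brightest in SupB15, -0.042 without suffixed probe sets and 0 with the median over probe sets. It lay between -0.15 and -0.11 with 1 SupB15-MR array left out. HDAC8 reversed to -0.070 with the probe set brightest in SupB15. Leaving out a SupB15-MR array leaves 1 array against 1 and no test. No paired analysis was possible because SupB15 has 1 array, so that the groups share fewer than 2 replicate numbers.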
